A study of Mus musculus with 42 samples.

Results

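The genes examined here were 10 that modify collagen or crosslink it: the lysyl oxidases Lox, Loxl1, Loxl2, Loxl3 and Loxl4, the prolyl 4-hydroxylase alpha subunits P4ha1, P4ha2 and P4ha3, and the lysyl hydroxylases Plod1 and Plod2. They were taken by symbol, and all 10 were found among the 26321 genes named in the CD1 RNA table and the 35972 in the C57BL/6 RNA table. Both tables came from flow-sorted mouse lung mesenchyme, and the question set by the series title was how cells in culture compare with cells in the lung. In CD1 mice the cells carried a GFP reporter for Col1a1 and were sorted as negative for CD45, EpCAM and CD31. The CD1 groups, with 3 RNA libraries each, were a sham group taken straight from the lung and groups grown for 5 days in 10% serum on collagen-coated silicone of 0.2 kPa (soft) or 32 kPa (stiff). In C57BL/6 mice, cells of the Col1a2 lineage, sorted as negative for CD45 and EpCAM, formed 3 groups of 4 RNA libraries: sham, and day 14 or day 56 of lung injury by bleomycin, which leads to scarring. ATAC-seq, which reads accessible DNA, was run on the same 6 groups. The labels give no age, do not state the Cre or induction of the lineage trace, and leave unsaid whether replicates are separate animals or cultures. The p-values therefore cover only how these libraries vary, which may be technical. Strain, reporter, RNA table and sort, with CD31 used only for the CD1 cells, differed together between the culture and the injury experiments and cannot be told apart.

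Collagen chains are modified before they leave the cell and crosslinked after. Prolyl 4-hydroxylase, built from an alpha subunit that P4ha1, P4ha2 or P4ha3 encodes and a shared beta subunit, hydroxylates prolines that hold the triple helix together, and Plod1 and Plod2 hydroxylate lysines, Plod2 mainly in the ends of the chain where crosslinks form. Both enzyme families need iron, oxygen, 2-oxoglutarate and ascorbate. Lysyl oxidases are secreted copper enzymes that oxidise lysines of collagen and elastin, the step that starts covalent crosslinking and stiffens scar tissue.

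Recovered reads numbered 35858180 to 69524944 per CD1 library and 14288605 to 51288435 per C57BL/6 library. The summed level of 7 fibroblast markers was 29740 to 42200 CPM (counts scaled to library size) in C57BL/6 sham, 81710 to 102200 at day 14 and 29710 to 44100 at day 56. The 16 leukocyte markers summed to 272.9 to 449.7, 727.6 to 2834 and 238.4 to 919.1 CPM in the same groups. Of the 16, 11 were higher at day 14 than in sham. The 7 fibroblast markers went both ways at day 14. Col1a1, Col1a2 and Col3a1 rose (log2 differences 2.54, 1.66 and 1.97), and Pdgfra, Dcn and Tcf21 fell (-0.69, -1.06 and -1.59). Lum (0.21) did not pass limma's test. The 11 epithelial markers summed to 126.4 to 328 CPM in C57BL/6 sham and 26.1 to 79.5 at day 14. The means of Sftpc, Sftpb, Sftpa1, Scgb1a1, Ager and Nkx2-1 fell, while those of Epcam, Cdh1, Krt8, Krt18 and Foxj1 rose. The 10 endothelial markers summed to 177.1 to 276.1 and 74.4 to 134.8 in these groups. Of them Tek fell (log2 difference -1.99), Erg rose (3.45), and the others did not pass limma's test. Epcam had 0 to 13 reads in every C57BL/6 library. In CD1 cells the fibroblast sum was 51350 to 61870 CPM in sham and 4365 to 5332 on the gels, where all 7 markers fell, and the leukocyte sum was 93.5 to 215.9 against 8.81 to 21.2. Of 6 genes of dividing cells, 6 rose at day 14 and 6 rose on each gel. The part of these markers in the results below was not tested, and in bulk RNA fewer cells of a type and less RNA per cell cannot be told apart.

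Levels can be compared between genes only per length, here as recovered reads per kilobase of exon, scaled to library size (RPKM). In C57BL/6 sham cells the order of mean RPKM ran from Loxl1 (107.2 ± 19.3, SD, n = 4) through Lox (62.5 ± 25.6), P4ha1 (33.9 ± 4.09), Loxl3 (29.3 ± 4.95), Plod1 (24.6 ± 0.462), Loxl4 (14.7 ± 2.15), Plod2 (13.7 ± 2.26), P4ha2 (11.4 ± 1.94) and Loxl2 (8.09 ± 1.79) to P4ha3 (2.82 ± 1.40). Loxl1 lay above Lox, Plod1 above Loxl4 and Loxl2 above P4ha3 without overlap of the libraries, and the other neighbours overlapped. In CD1 sham cells Loxl1 again had the highest mean, 184.9 ± 34.7 (n = 3), and P4ha3 the lowest, 3.94 ± 0.482. The place of Loxl2 differed between the sham groups: it ranked the second in CD1 sham, at 75.4 ± 6.74 RPKM, and the ninth in C57BL/6 sham.

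Which lysyl oxidase made up most of the family changed with the condition, in the shares of summed RPKM. In C57BL/6 sham cells Loxl1 held 48.5% ± 4.52 of the lysyl oxidase RPKM and Lox 27.3% ± 8.76 (SD, n = 4). At day 14 Lox held 53.8% ± 5.09 and Loxl1 26.6% ± 2.98, and at day 56 the shares were 21.8% ± 7.31 and 58.2% ± 8.47. In CD1 cells Lox went from 13.1% ± 1.58 in sham to 75.7% ± 3.45 on soft and 69.8% ± 8.40 on stiff gels (n = 3), while Loxl2 went from 21.7% ± 2.44 to 1.92% ± 0.0366 and 2.06% ± 0.299. Among the prolyl hydroxylase alpha genes, P4ha3 held 5.64% ± 2.20 of the RPKM in C57BL/6 sham, 30.1% ± 9.98 at day 14 and 10.7% ± 6.47 at day 56, while P4ha1 held 70.7% ± 2.27, 42.0% ± 7.83 and 70.8% ± 4.54.

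**Figure D1:**
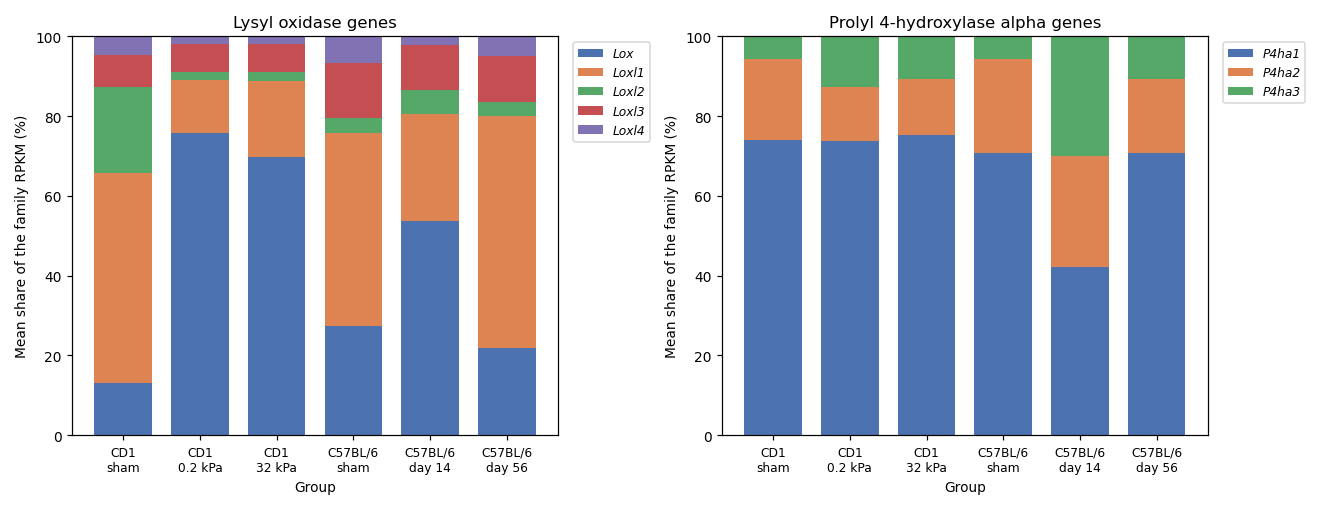
Mean share (%) of the summed RPKM of 5 lysyl oxidase genes (left) and 3 prolyl 4-hydroxylase alpha genes (right) in each of the 6 groups, 3 libraries per CD1 group and 4 per C57BL/6 group; colours stand for genes and no error is drawn. Lox held 53.8% of its family at day 14 and 75.7% on soft gels, against 27.3% and 13.1% in the sham groups.

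At day 14 after bleomycin, 7 of the 10 genes rose and 0 fell: Lox, Loxl2, Loxl3, P4ha2, P4ha3, Plod1 and Plod2. Over all 21100 genes tested in that comparison, 9.57% were higher, 6.36% lower and 15.9% were called in either direction by limma at a Benjamini-Hochberg adjusted p of at most 0.05. The median difference of the 10 genes was 0.97 on the log2 scale, against 0.05 over all genes. Differences are between groups on the scale log2(rescaled reads + 1), which understates the change of low genes, and rescaled reads are the values given per library below. Loxl1, Loxl4 and P4ha1 did not pass the test.

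The 3 prolyl hydroxylase alpha subunits moved apart. P4ha3, the least expressed of them in sham, had 123.9, 285.3, 529.0 and 356.6 rescaled reads in the 4 sham libraries and 1645, 2250, 2458 and 4054 at day 14. Every day 14 library lay above every sham library, and the difference was 3.10 (SE 0.52, limma adjusted p = 0.00111). P4ha2 had 2317, 2092, 3205 and 2831 rescaled reads in sham and 5169, 4419, 4883 and 4465 at day 14, also without overlap, a difference of 0.87 (SE 0.16, limma adjusted p = 0.00207). P4ha1, the most abundant alpha subunit in sham, had 4649, 4456, 6123 and 5204 in sham and 5904, 4736, 4091 and 4114 at day 14. Its groups overlapped, and the difference of -0.12 had a 95% interval of -0.45 to 0.20.

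Both lysyl hydroxylases rose. Plod2 had 2840, 3174, 2472 and 2307 rescaled reads in sham and 8099, 7155, 6994 and 7103 at day 14, a difference of 1.45 (SE 0.23, limma adjusted p = 7.63e-04). Plod1 had 6191, 5684, 6382 and 6027 in sham and 7917, 9058, 9798 and 8260 at day 14, a smaller difference of 0.52 (SE 0.12, limma adjusted p = 0.00637). Neither gene's groups overlapped.

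Among the lysyl oxidases, Lox had 4648, 10524, 14824 and 13678 rescaled reads in sham and 34366, 51672, 65120 and 56688 at day 14. The lowest day 14 library held more than the highest sham library, and the difference was 2.34 (SE 0.36, limma adjusted p = 5.42e-04). Loxl2, which oxidises collagen IV of basement membranes among other substrates, went from 1470, 1923, 1824 and 1164 to 5323, 7097, 7324 and 6534, without overlap and with a difference of 2.06 (SE 0.21, limma adjusted p = 2.27e-05). Loxl3 went from 5935, 3767, 5460 and 4630 to 10252, 10984, 9244 and 10206, without overlap and with a difference of 1.06 (SE 0.17, limma adjusted p = 6.85e-04).

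Loxl1, the elastin-directed member that was highest per length in sham, had 10367, 15278, 13743 and 12122 rescaled reads in sham and 15086, 15547, 18316 and 20604 at day 14. The groups overlapped by 1 library on each side, and the difference of 0.44 (95% interval 0.12 to 0.76) had an adjusted p of 0.0624 by limma. It passed with DESeq2 (adjusted p = 0.0363), with a filter of a mean of at least 10 (0.0480) and without sham replicate 2 (0.0448), and in the authors' deposited table its log2 fold was 0.43 with an FDR of 0.0492. Over the alternatives tried, the count of the 10 genes called at day 14 was 7 or 8. Loxl4 had 2195, 2587, 2374 and 1856 rescaled reads in sham and 1524, 1500, 2205 and 1786 at day 14, overlapping groups with a difference of -0.37 (95% interval -0.87 to 0.14).

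**Figure D2:**
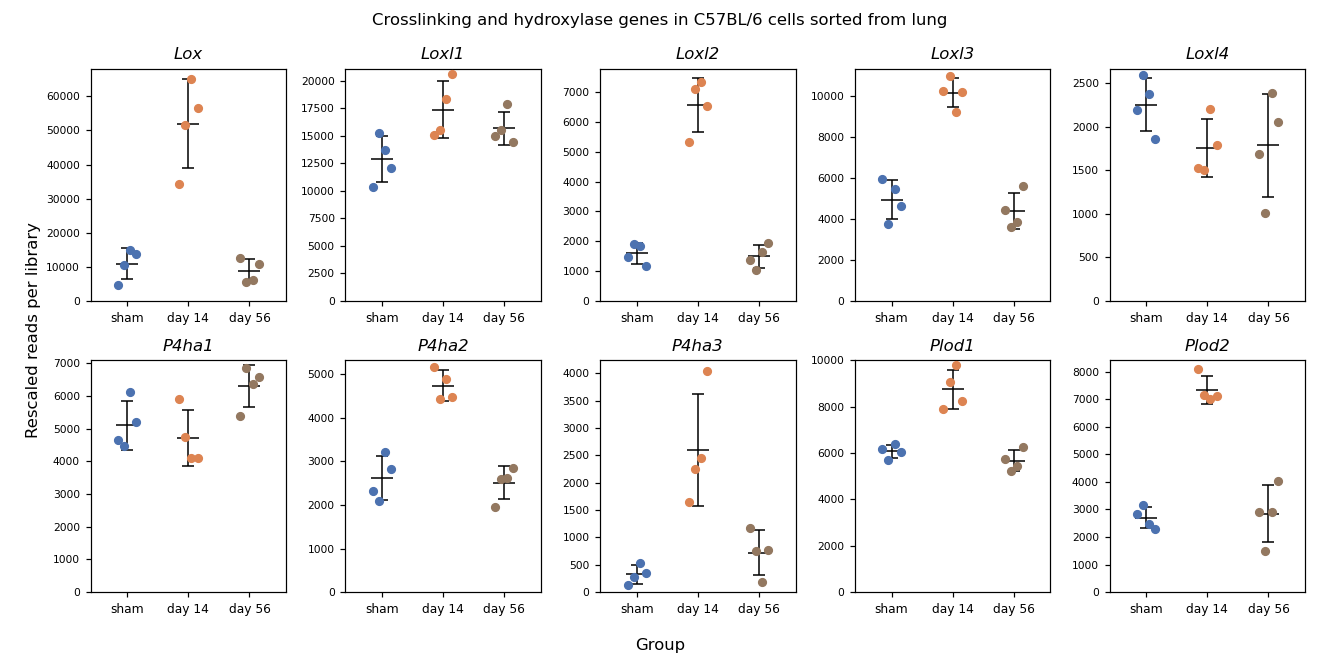
Rescaled reads per library (linear axis from 0) of the 10 genes in C57BL/6 sham, day 14 and day 56 cells; points are the 4 libraries of a group, and the bar and whiskers are the mean and SD. For Lox, Loxl2, Loxl3, P4ha2, P4ha3, Plod1 and Plod2 the 4 day 14 points lie above all sham and day 56 points.

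At day 56 the 7 genes that had risen were lower than at day 14, and 0 of the 10 differed from sham in the test. Against day 14, 0 were higher and 7 lower, where 8.49% of 21100 genes were lower, 5.71% higher and 14.2% called in either direction. With the values as the authors deposited them, 777 genes were higher and 3035 lower in that comparison, against 1205 and 1792 after rescaling, and edgeR gave 1260 and 1232. The median of the 10 genes was -1.08, against -0.08 over all genes. The day 14 and day 56 comparisons share the day 14 libraries, and only the levels are set side by side here. By the Xist reads given with P4ha3 below, sex was unevenly spread over the 3 groups, a limit for all 10 genes. With a term for sex, limma called 6 of the 10 at day 56 against day 14 and 0 against sham.

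Lox had 12550, 5500, 6011 and 10893 rescaled reads at day 56, all below every day 14 library and within the sham range. Loxl2 had 1383, 1025, 1653 and 1932, Loxl3 had 4445, 3637, 3847 and 5603, and Plod1 had 5746, 5232, 5432 and 6256. For these 4 genes the day 56 minus day 14 differences were -2.63, -2.16, -1.23 and -0.63, with limma adjusted p-values of 2.92e-04, 2.27e-05, 2.81e-04 and 0.00241. Plod2, at 2905, 1504, 2914 and 4045, spread more at day 56 than in sham and fell by 1.45 from day 14 (limma adjusted p = 9.61e-04). P4ha2, at 1959, 2600, 2623 and 2847, fell by 0.93 (limma adjusted p = 0.00161).

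P4ha3 had the widest spread at day 56, with 1177, 749.7, 190.1 and 779.2 rescaled reads. Of the 4 libraries, 3 lay above all sham libraries and 1 lay within the sham range. Genes detected in these libraries numbered 20118, 16679, 16563 and 21379, the fewest in the library within the sham range. In the sham libraries, in the order given above, they numbered 16913, 17561, 20686 and 21381. The part of genes detected in the spread of P4ha3 was not tested. The difference from day 14 was -2.03 (SE 0.52, limma adjusted p = 0.0180), which did not pass with a term for sex (-1.83, adjusted p = 0.0805) or without day 14 replicate 4 (-1.79, adjusted p = 0.0592). Xist, expressed from the inactive X, had more reads than the Y-linked Ddx3y in 1 of the sham, 2 of the day 14 and 4 of the day 56 libraries. Against sham the difference was 1.07 (95% interval -0.05 to 2.19, limma adjusted p = 0.795).

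Against sham, day 56 gave 0 of the 10 genes in a table where limma called 0.00474% of genes, all of them lower. At an unadjusted p under 0.05, limma found 0 of the 10, edgeR 1 and DESeq2 1, and over all genes limma found 1328 at that level. The 95% intervals of the differences were -1.05 to 0.48 for Lox, -0.02 to 0.62 for Loxl1, -0.55 to 0.35 for Loxl2, -0.53 to 0.18 for Loxl3 and -0.90 to 0.11 for Loxl4. They were -0.02 to 0.63 for P4ha1, -0.40 to 0.29 for P4ha2, -0.35 to 0.14 for Plod1 and -0.50 to 0.50 for Plod2. Loxl1 had 14979.6, 15488, 17854 and 14457 rescaled reads at day 56 and Loxl4 had 1688, 1004, 2391 and 2054, and both overlapped with sham and with day 14. P4ha1 had 5377, 6871, 6377 and 6590, 0.43 above day 14 (limma adjusted p = 0.0768, and 0.0342 without day 14 replicate 1).

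In culture Lox, Loxl3 and Plod2 were higher on both gels, and most of the others lower, than in cells sorted from the lung. On soft gels 4 of the 10 genes rose (Lox, Loxl3, P4ha3 and Plod2) and 6 fell, against 31.9% higher and 39.2% lower of 18478 genes tested, 71.1% called in all. On stiff gels 3 rose (Lox, Loxl3 and Plod2) and 6 fell, against 32.4% higher and 41.0% lower, 73.4% in all. Most genes were called in these comparisons, so that a call alone says little about a gene. The median of the 10 genes was -0.52 on soft and -0.66 on stiff gels, against -0.22 and -0.26 over all genes. By size without sign, the 10 genes changed less than all genes. These medians were 0.797 against 1.198 on soft and 0.867 against 1.285 on stiff gels. Both comparisons share the 3 sham libraries.

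Lox, whose product is made as a secreted proenzyme, had 11846, 12412 and 9689 rescaled reads in sham, 100357, 98308 and 85125 on soft gels and 83300, 62308 and 109905 on stiff gels. Its ratio of means was 8.36 on soft and 7.53 on stiff gels, and the log2 differences were 3.07 (SE 0.19, limma adjusted p = 1.23e-07) and 2.88 (SE 0.19, adjusted p = 1.86e-07). The groups did not overlap, and on either gel Lox was the highest of the 10 genes per length, at 438.5 ± 40.3 and 376.6 ± 115.7 RPKM (SD, n = 3).

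Loxl2 moved the other way. It had 22147, 22150 and 19075 rescaled reads in sham, 2792, 2710 and 2626 on soft gels and 2803, 2692 and 2793 on stiff gels. The ratio of means was 0.128 on soft and 0.131 on stiff gels, with differences of -2.96 (SE 0.09, limma adjusted p = 6.85e-10) and -2.93 (SE 0.09, adjusted p = 6.62e-10). Loxl1 went from 25928, 38171 and 30838 in sham to 9851, 10582 and 14100 on soft gels and 17253, 17633 and 10793 on stiff gels, differences of -1.46 and -1.07 (limma adjusted p = 1.09e-04 and 9.55e-04). No gel library of either gene reached the sham range.

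The remaining lysyl oxidases changed less. Loxl3 had 6447, 6481 and 7001 rescaled reads in sham, 8381, 8549 and 8234 on soft gels and 7816, 8196 and 8745 on stiff gels, and rose by 0.34 and 0.31 (limma adjusted p = 0.00458 and 0.00677). Loxl4 had 3774, 2820 and 3740 in sham, 2410, 2060 and 1981 on soft gels and 1814, 1679 and 2363 on stiff gels, and fell by 0.67 and 0.82 (limma adjusted p = 0.00285 and 7.08e-04).

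Of the hydroxylases, Plod2 rose and Plod1 fell. Plod2 had 5578, 4976 and 5907 rescaled reads in sham, 9821, 9183 and 8642 on soft gels and 8791, 8942 and 9713 on stiff gels, differences of 0.75 and 0.74 (SE 0.10 each, limma adjusted p = 4.47e-05 and 4.59e-05). Plod1 had 6334, 6771 and 7192 in sham, 3561, 3832 and 4115 on soft gels and 3828, 3233 and 3739 on stiff gels, differences of -0.82 and -0.91 (limma adjusted p = 3.06e-05 and 1.21e-05). Neither gene's gel libraries overlapped with sham.

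P4ha1 and P4ha2 were lower on the gels. P4ha2 had 4250, 4583 and 4662 rescaled reads in sham, 2450, 2309 and 2276 on soft gels and 2178, 2092 and 2349 on stiff gels, differences of -0.94 and -1.03 (limma adjusted p = 3.79e-06 and 1.71e-06). P4ha1 had 11055, 11648 and 9838 in sham, 8776, 8325 and 8020 on soft gels and 7500, 7244 and 8254 on stiff gels, differences of -0.37 and -0.50 (limma adjusted p = 0.00580 and 8.25e-04). P4ha3 had 569.5, 731.2 and 621.0 rescaled reads in sham, 1070, 1267 and 959.5 on soft gels and 802.0, 630.1 and 1073 on stiff gels. Its soft libraries lay above sham (0.78, limma adjusted p = 0.00426), whereas the stiff libraries overlapped with sham (0.36, adjusted p = 0.121, and 0.0233 without stiff replicate 2).

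**Figure D3:**
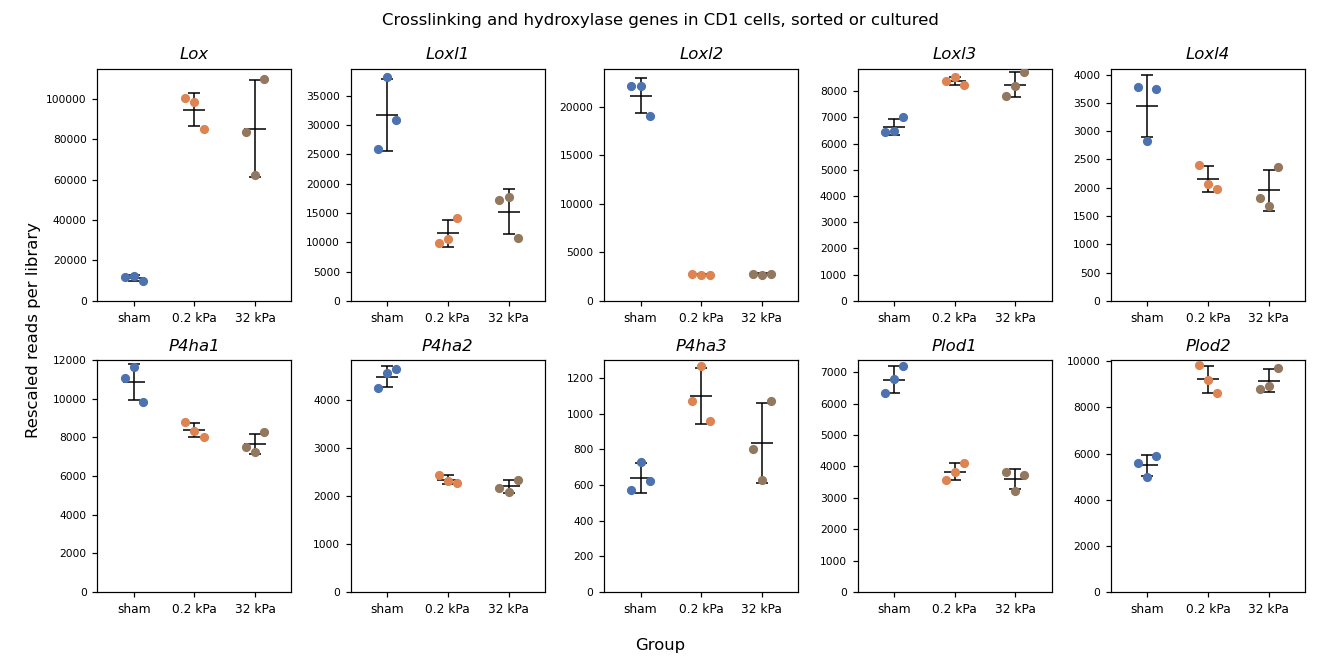
Rescaled reads per library (linear axis from 0) of the 10 genes in CD1 cells sorted from sham lungs or grown on 0.2 kPa or 32 kPa gels; points are the 3 libraries of a group, and the bar and whiskers are the mean and SD. Lox lies between 62308 and 109905 on the gels against at most 12412 in sham, and Loxl2 lies between 2626 and 2803 on the gels.

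Gel stiffness was not followed by a called difference in any of the 10 genes. Limma called 0 of the 10 and 0% of 18478 genes between 32 kPa and 0.2 kPa, with 0 of the 10 and 1010 of all genes at an unadjusted p under 0.05. Over all genes edgeR called 1 and DESeq2 43, and both called 0 of the 10. Without stiff replicate 3, limma called 848 genes, 338 higher and 510 lower on stiff gels, and again 0 of the 10. A p that misses the threshold does not show that the gels act alike, so the 95% intervals of stiff minus soft are given. They were -0.61 to 0.24 for Lox, -0.09 to 0.86 for Loxl1, -0.17 to 0.23 for Loxl2, -0.21 to 0.16 for Loxl3 and -0.50 to 0.20 for Loxl4. For the hydroxylases they were -0.35 to 0.09 for P4ha1, -0.29 to 0.11 for P4ha2, -0.85 to 0.01 for P4ha3, -0.32 to 0.13 for Plod1 and -0.23 to 0.21 for Plod2. The intervals were widest for Loxl1, P4ha3 and Lox and narrowest for Loxl3, and all 10 include 0.

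**Figure D4:**
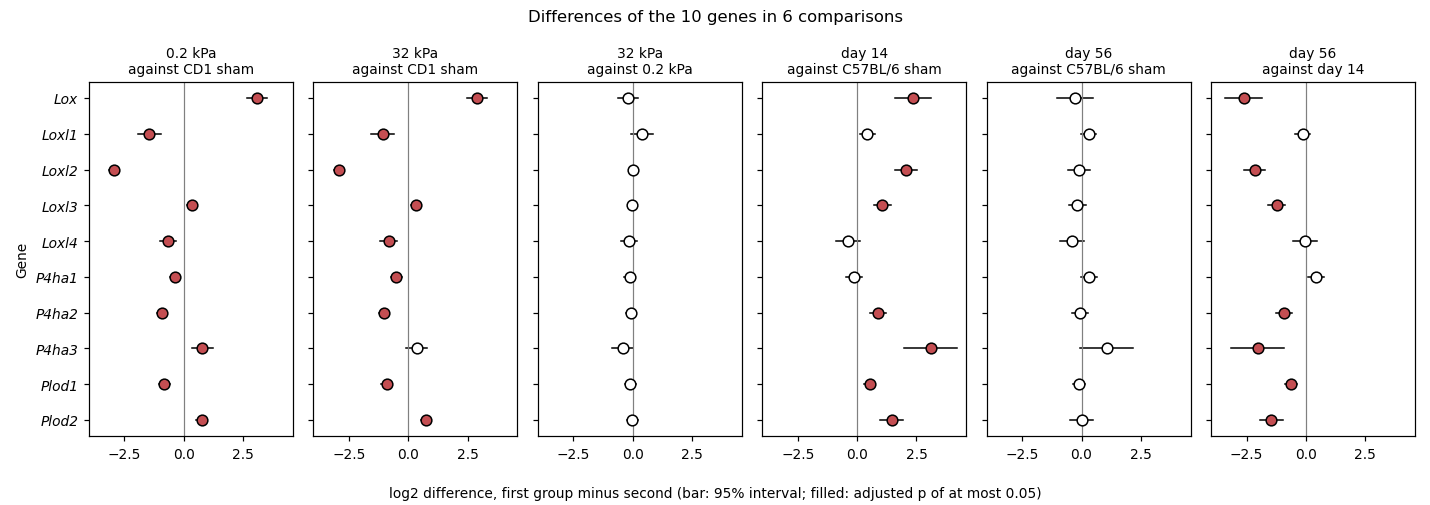
Log2 difference (first group minus second) of each of the 10 genes in 6 comparisons, with its 95% interval from limma; filled points passed a Benjamini-Hochberg adjusted p of 0.05. Loxl2 lies at -2.96 and -2.93 on the gels and at 2.06 at day 14, whereas Lox is positive in all of these, at 3.07, 2.88 and 2.34.

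The change in culture differed from the change at day 14 for 6 of the 10 genes. This was tested on recovered reads with edgeR's quasi-likelihood test, as the mean change on the gels minus the change at day 14, over 16431 genes named in both tables. Of all these genes 26.3% were lower and 22.4% higher, 48.7% in all, and of the 10 genes 6 were lower and 0 higher. With so many genes called, a call alone says little about a gene. Loxl2, which fell on the gels and rose at day 14, had the widest gap, at -4.86 (edgeR adjusted p = 2.15e-12). P4ha3 (-2.29, adjusted p = 0.00267), P4ha2 (-1.71, adjusted p = 5.38e-07), Loxl1 (-1.57, adjusted p = 1.02e-05) and Plod1 (-1.26, adjusted p = 1.25e-06) followed by size. The gap of Loxl2 started from unlike sham levels, 67.6 to 79.9 RPKM in CD1 and 5.99 to 10.1 in C57BL/6. Its gel libraries, at 10.4 to 11.4 RPKM, lay above C57BL/6 sham, and its day 14 libraries, at 26.4 to 35.5, lay below CD1 sham.

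Loxl3 was lower by 0.58 (edgeR adjusted p = 0.0245), a call lost with the soft gel alone (adjusted p = 0.0519), without CD1 sham replicate 3 (0.0631) and without C57BL/6 sham replicate 2 (0.0541). Lox (0.87, edgeR adjusted p = 0.107, and 0.0176 without C57BL/6 sham replicate 1) and Plod2 (-0.57, adjusted p = 0.0876, and 0.0402 with limma) did not pass, and their culture and injury changes had the same sign. Loxl4 (-0.26) and P4ha1 (-0.19) did not pass either. With day 56 in place of day 14 the calls were 3 higher and 5 lower. Lox at 3.41, Plod2 at 0.76 and Loxl3 at 0.60 were the genes above 0. In that fit 4074 of all 16431 genes were higher and 4730 lower, 8804 in all. A call in that fit alone thus says little about a gene. The comparison sets different strains, reporters, sorts and tables against each other, so those and the culture itself cannot be told apart.

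The genes that supply and surround these enzymes were counted in lists of related genes. The first list held 10 genes of collagens, elastin and other elastic fibre proteins, not all of them substrates of the enzymes. Of these, 8 rose and 1 fell at day 14 (median 1.81), led by Eln, which encodes elastin (2.74), and Col1a1 (2.54). On soft gels 2 rose and 8 fell (median -2.45), led by the microfibril protein gene Mfap4 (-8.07) and Col3a1 (-6.37), and on stiff gels the counts were the same (median -2.47, Mfap4 -7.93 and Col3a1 -6.65). Over all genes the medians were 0.05 at day 14, -0.22 on soft and -0.26 on stiff gels. At day 56 against day 14, 1 rose and 8 fell (median -1.93), with Col1a1 at -2.54 and Eln at -2.41. For this list and those below, the shares of all genes higher and lower were 9.57% and 6.36% at day 14. They were 5.71% and 8.49% at day 56 against day 14, 31.9% and 39.2% on soft gels, and 32.4% and 41.0% on stiff gels.

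Of 23 further genes of collagen maturation, 7 rose and 2 fell at day 14 (median 0.50), and the most changed were Colgalt2, a collagen galactosyltransferase (-4.53), Pcolce2, a procollagen C-proteinase enhancer (-2.31), and Fkbp10, a collagen chaperone (1.20). At day 56 against day 14, 2 rose and 6 fell (median -0.33), with Colgalt2 at 3.79, the procollagen N-proteinase Adamts14 at -2.48 and Pcolce2 at 2.15. On soft gels 4 rose and 15 fell (median -0.86), with Colgalt2 at -7.49, the proteinase Tll1 at 5.98 and the N-proteinase Adamts2 at -4.78. On stiff gels 3 rose and 16 fell (median -0.82), with the same genes at -9.43, 5.86 and -4.88. Colgalt2 was near the limit of detection on stiff gels, at 0 to 10.3 rescaled reads against 1994 to 2190 in CD1 sham, so its difference there depends on the pseudocount. Tll1 had 229 to 309 rescaled reads in CD1 sham and 12428 to 22297 on stiff gels.

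Of 20 targets of hypoxia-inducible factor, a class to which P4ha1, P4ha2, Plod2 and Lox are known to belong, 6 rose and 2 fell at day 14 (median -0.14). Car12, a carbonic anhydrase (4.32), and Hk2, a hexokinase (2.67), were the most changed. At day 56 against day 14, 1 rose and 6 fell (median -0.03), with Car12 at -3.73 and Hk2 at -2.05. On soft gels 8 rose and 7 fell (median 0.24), with the glycolytic genes Eno1 at 3.94 and Pgk1 at 3.16, which have near-identical copies in the mouse genome that could share reads. On stiff gels 9 rose and 8 fell (median 0.33), with Eno1 at 4.21 and the low-expressed carbonic anhydrase Car9 at -3.28. Since 71.1% of all genes were called on soft and 73.4% on stiff gels, these counts alone say little about the list. Of 7 genes that move copper or ascorbate, 2 rose and 0 fell at day 14 (median 0.09): the copper importer Slc31a1 (1.19) and the copper chaperone Atox1 (1.25), at -1.25 and -1.17 at day 56 against day 14. On soft gels 2 rose and 4 fell (median -1.17), with Slc31a2 at -2.42 and Atp7b at -2.38, and on stiff gels 2 rose and 4 fell (median -1.42), with Atp7b at -3.46 and Slc31a2 at -2.33. Atp7b had at most 29.2 rescaled reads in any CD1 library. None of the genes in these 4 lists passed limma's test between day 56 and sham or between the gels.

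Accessible regions at these genes were read from the authors' deposited lists of regions that differ between groups, with the authors' log2 differences and FDR. A listed region was given to the gene the list names or, where the culture lists name none, to the nearest RefSeq start, and no test over libraries was possible. At day 14, 18 of 25518 listed regions belonged to 6 of the 10 genes, 13 gained and 5 lost, where 67.92% of the whole list was gained. By this naming P4ha3 and Plod2 held 9 of the 13 gains and none of the losses, but regions inside Plod2 that are named to another gene, B430319G15Rik, include losses and are described with Plod2. For P4ha3 all 5 regions were gained, from 3731 bp before its start to 27422 bp after it. The region in intron 8 went from a log2 concentration of 2.74 in sham to 5.94 at day 14, a difference of 3.20 (authors' FDR 1.37e-13), and the intron 7 region from 3.45 to 6.15, a difference of 2.70. They are printed below with the Plod2 region of the strongest gain, since these are the largest gains at both genes, and with a Loxl1 region that overlaps regions lost at day 14 and on the gels. Letters are the + strand of GRCm38.p6, the mm10 build of the lists, and capitals mark matches on either strand to TGANTCA (the AP-1 motif), GGAATG (TEAD) or TGTGGT (RUNX).
P4ha3 intron 8, chr7:100312806-100313078: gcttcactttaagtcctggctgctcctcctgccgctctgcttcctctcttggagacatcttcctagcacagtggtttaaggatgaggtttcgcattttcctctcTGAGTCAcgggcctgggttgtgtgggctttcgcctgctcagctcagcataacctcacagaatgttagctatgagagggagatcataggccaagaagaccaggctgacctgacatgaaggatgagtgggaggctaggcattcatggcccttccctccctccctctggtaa
P4ha3 intron 7, chr7:100309291-100309521: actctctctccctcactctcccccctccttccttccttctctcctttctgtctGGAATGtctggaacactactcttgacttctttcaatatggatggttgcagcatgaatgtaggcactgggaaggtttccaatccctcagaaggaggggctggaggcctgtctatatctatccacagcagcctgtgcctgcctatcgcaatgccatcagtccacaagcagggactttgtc
Plod2 upstream, chr9:92538261-92538518: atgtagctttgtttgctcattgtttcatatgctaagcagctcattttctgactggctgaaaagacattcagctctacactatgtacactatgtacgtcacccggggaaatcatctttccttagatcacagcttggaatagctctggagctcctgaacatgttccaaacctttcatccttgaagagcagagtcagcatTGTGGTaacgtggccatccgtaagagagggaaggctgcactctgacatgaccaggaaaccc
Loxl1 intron 1, chr9:58310374-58310662: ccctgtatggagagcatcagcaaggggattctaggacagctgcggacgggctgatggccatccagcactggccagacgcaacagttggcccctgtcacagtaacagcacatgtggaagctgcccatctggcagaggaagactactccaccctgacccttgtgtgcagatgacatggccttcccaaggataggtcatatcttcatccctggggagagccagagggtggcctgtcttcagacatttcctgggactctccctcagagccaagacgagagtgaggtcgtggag

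The P4ha3 intron 8 region held 1 AP-1 match (TGAGTCA), which 37.8% of windows of its length at the centres of the 25518 day 14 regions also held. The intron 7 region held 1 TEAD match, found in 19.7% of such windows, and the Plod2 region 1 RUNX match, found in 28.6%. The Loxl1 region held none of the 3. Such matches are a description of letters and were common in the list.

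P4ha3 had regions in every list except that of soft gels against sham. From day 14 to day 56 the intron 8 and intron 7 regions and a region 3735 bp before the start fell by 2.84, 1.90 and 1.40. An intron 1 region, up by 2.04 at day 14, overlapped one listed at day 56 against sham, with a log2 concentration of 6.94 against 5.13 (difference 1.81, authors' FDR 2.53e-04), and it was not among the regions lost from day 14 to day 56. On stiff gels a region overlapping the intron 8 region was up by 3.34 against sham (5.99 against 2.66), and it was 1 of 2 regions named to the 10 genes between stiff and soft gels, up by 1.01 on stiff (authors' FDR 0.00489). The other, 3638 bp before the P4ha3 start, was up by 1.09 (authors' FDR 0.0156), and a region in Plod2 intron 11, named to B430319G15Rik, was up by 1.17 (authors' FDR 0.00358). That list held 2558 regions, of which 99.73% were higher on stiff gels. In it the P4ha3 intron 8 region stood at a log2 concentration of 4.98 on soft gels, above the 2.66 listed for CD1 sham. The region before the P4ha3 start stood at 4.04 on soft gels, against 4.05 listed for CD1 sham. Absence from the list of soft gels against sham thus does not show that the intron 8 region was unchanged there. The RNA of P4ha3 had the opposite sign between the gels, -0.42, with an interval that includes 0.

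At day 14, 4 regions named to Plod2 were gained, the strongest 3834 bp before its start (5.36 to 7.49, difference 2.13, authors' FDR 2.21e-28). That region fell by 1.22 to day 56, and a region overlapping it was up by 1.26 on stiff gels against sham. On both gels the region over the Plod2 start was lost (-2.84 on soft and -2.13 on stiff), while its RNA was higher.

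Regions inside the Plod2 gene but named to B430319G15Rik went both ways. At day 14 a region in intron 1 (-1.12) and a region in intron 11 (-1.25, authors' FDR 1.72e-11) were lost, while others in intron 1 (1.54) and intron 4 (1.10) were gained. A region overlapping the intron 4 region was listed as higher at day 56 against sham (1.12, authors' FDR 0.00491). On the gels such regions ranged from -2.98 to 1.79 on soft and from -2.38 to 2.29 on stiff.

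At Lox, regions 29114 bp and 34604 bp before the start gained 1.78 and 1.57 at day 14, fell by 1.77 and 2.02 to day 56, and overlapped regions up by 1.92 and 2.50 on soft and 2.71 and 2.85 on stiff gels. A region 5781 bp before the Lox start also gained at day 14 (1.14). Another, 28915 bp after the Lox start, was lost at day 14 (-1.20, authors' FDR 2.22e-04). A region overlapping the lost one was higher at day 56 than at day 14 (1.38). The region over the Lox start was lost on the gels (-1.96 and -1.38), while Lox RNA rose. P4ha2 gained a region 49057 bp after its start at day 14 (2.26) and lost its intron 2 region (-1.58). The only region named to Plod1 at day 14, 1486 bp before its start, was lost (-1.20, authors' FDR 9.39e-15), while Plod1 RNA rose.

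In culture most listed regions at the 10 genes were lost, as were most of the lists. On soft gels 35 of 47475 regions lay at 8 of the genes, 2 gained and 33 lost, where 12.06% of the list was gained. On stiff gels 42 of 58510 lay at 9 genes, 10 gained and 32 lost, where 29.62% was gained, and this list holds differences down to 0.31 in size, where the smallest in the other lists is 1. Loxl1 had 10 regions on each gel, all lost (-1.24 to -3.31). Its intron 1 region printed above was higher at day 56 than at day 14 (1.24), and it overlapped a region of the day 14 list at -1.25 against sham and a region at -2.80 on soft and -2.87 on stiff gels. P4ha1 lost the region over its start (-3.61 on soft and -2.97 on stiff gels), the largest loss among listed regions of the 10 genes on either gel. The region over the start was lost on both gels at Lox, Loxl1, Loxl3, Loxl4, P4ha1, P4ha2, Plod1 and Plod2, whichever way the RNA had gone, and none was listed at P4ha3. The share of all gene starts lost on the gels was not counted, so these losses cannot be called particular to the 10 genes. Loxl2 had no listed region of its own by nearest start, and 2 regions inside its gene body, assigned to Mir6950, were lost on the gels (-1.79 to -3.13). A region overlapping one of them was also lost at day 14 (-1.01, authors' FDR 2.63e-08), when Loxl2 RNA rose by 2.06.

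**Figure D5:**
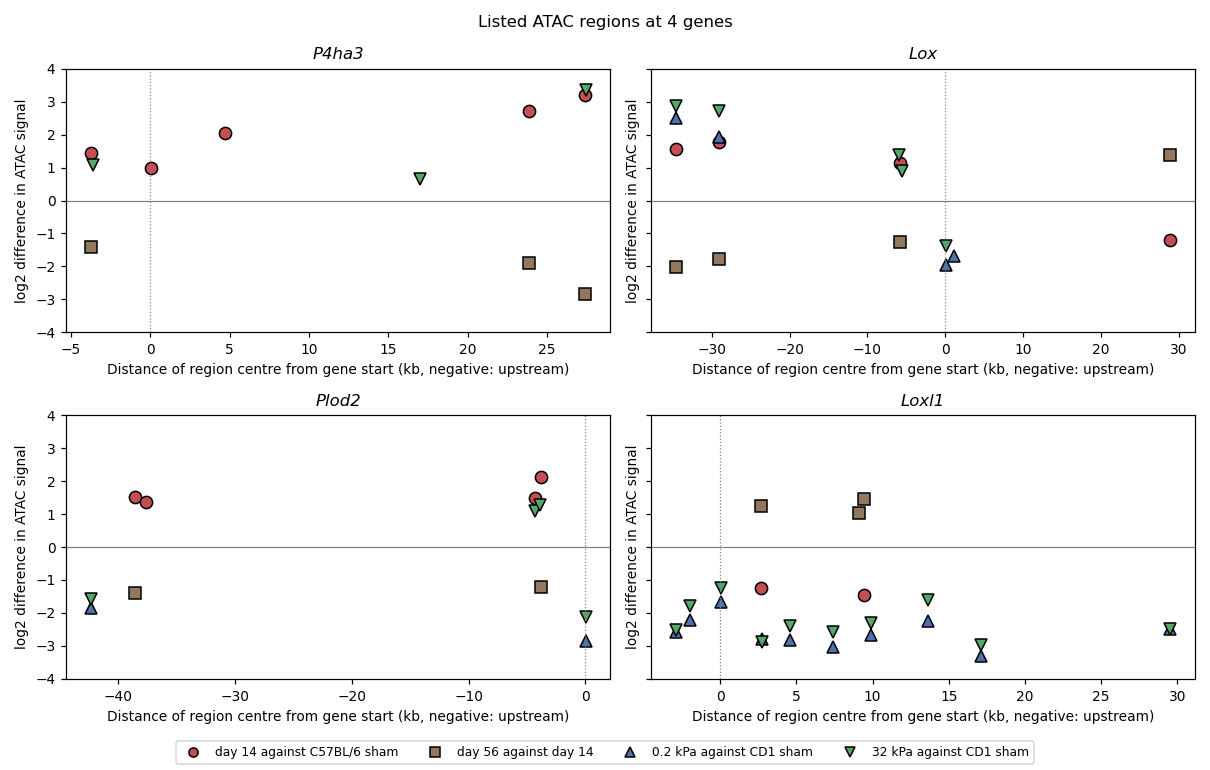
Authors' log2 difference of each listed ATAC region at P4ha3, Lox, Plod2 and Loxl1 against the distance (kb) of its centre from the gene's start, negative upstream; marks stand for 4 of the 6 lists. At Lox the regions 29114 bp and 34604 bp upstream are positive at day 14 and on both gels, while the region at the start is negative on both gels.

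Across the 12 C57BL/6 libraries, the genes most like each member were sought among 12028 genes with a mean of at least 100 rescaled reads, by Pearson's r of log2 values. The libraries are the same for every gene and differ by group, so that these values are a description. Lox was most like Adam9 (r = 0.97) and Melk (0.96), Loxl2 like Col5a1 (0.99) and D17H6S56E-5 (0.98), and Loxl3 like Plk4 (0.98) and Ncam1 (0.97). P4ha2 was most like P4hb, the gene of the beta subunit (0.97), and Cdc42se1 (0.97), and P4ha3 like Adam12 (0.96) and Sfrp1 (0.96). Plod1 was most like Ncam1 (0.97) and Itga5 (0.97), and Plod2 like Cspg4 (0.98) and Slc7a2 (0.98). The 3 genes not called at day 14 had other neighbours: Shisa4 (0.90) and Foxp4 (0.87) for Loxl1, Phldb1 (0.94) and Ttc28 (0.94) for Loxl4, and Pqlc3 (0.93) and Wdr89 (0.92) for P4ha1. P4ha1 was negatively correlated with every other member, from -0.18 with Loxl1 to -0.60 with Plod1.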

How the data were processed

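RNA and ATAC libraries of sorted mouse lung mesenchyme were analysed, 21 of each. Per the submitters' processing notes, HISAT2, featureCounts (Subread), Picard, DESeq2, Bowtie2, SAMtools, MACS2, bedtools, DiffBind and HOMER were used with the mm10 build; their versions, the strand setting, the transposase shift and any pooling before peak calling are not stated there. Per the file headers, each strain has a deposited RNA table of normalized signal, in which 100% of values were whole reads times 1 factor per library within 0.05 reads, together with the authors' log2 fold and an adjusted p-value per pair of groups. The deposited ATAC lists hold, per the file headers, log2 concentrations, their log2 difference, a p-value and an FDR, and are used only as the authors' values.

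Signal was rescaled by median-of-ratios factors within each table. CD1 entries without a symbol (855, 2.13 to 4.77% of reads) were left out. limma 3.58.1 with a mean trend was fitted to log2(value + 1) of all genes with a mean of at least 1 (18478 and 21100), with 1 fit per table and Benjamini-Hochberg adjustment over all of them at 0.05. The difference between culture and injury changes was fitted with edgeR 4.0.16 on recovered reads. The fits were tested on simulated data. RPKM used exon union lengths of GENCODE. Named besides the 10 members were the 3 most changed called genes of the maturation list per comparison, up to 2 of the other lists, and the 2 genes most like each member. Members and lists were chosen with earlier results of these data known. Libraries were not paired by replicate number in the main fits, and whether the numbers pair them is unknown. Alternatives were other pseudocounts, filters, scalings, tools (DESeq2 1.42.0), group subsets, a replicate block, a sex term and leaving out libraries.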

Additional observations from a re-analysis of the deposited data

Results flagged for a closer look

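At day 14, Plod2 in replicate 1 (8099 rescaled reads) lay farther from the other 3 libraries, 6994 to 7155, than the spread of a group of 4 allows at Dixon's 95% critical value. It was 1 of 30 groups of 4 examined, and chance flags about 1 in 20. All 4 libraries lay above every sham library.

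For 6 genes the change in culture differed from the change at day 14 in edgeR's test of the difference: Loxl1 (-1.57), Loxl2 (-4.86), Loxl3 (-0.58), P4ha2 (-1.71), P4ha3 (-2.29) and Plod1 (-1.26). All 6 were lower in culture than at day 14 relative to their own sham group, and strain, reporter, sort and table differ between the experiments as well. Over all 16431 genes in that test, 48.7% were called, 26.3% lower and 22.4% higher, so a call alone says little about a gene.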

How the results depend on the processing

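Of 1250 single-gene values under the alternatives, 1210 kept direction and side of the threshold, 6 lost a call, 9 gained a call and 25 changed sign. On soft gels all 10 genes were called in each fit without 1 library, on stiff gels 9 to 10, and between the gels 0. Without 1 library, 7 to 8 were called at day 14 against sham, 0 at day 56 against sham, 6 to 8 at day 56 against day 14 and 5 to 7 in the difference between culture and injury.

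With day 56 as the injury, Loxl3 (0.60) and Plod2 (0.76) reversed against -0.58 and -0.57, since day 56 in place of day 14 sets another change against the culture. Other changes of sign were small, and their cause was not tested. At day 56 against sham they were Plod2 with values as deposited (-0.21) and with a sex term (-0.15), P4ha2 with a sex term (0.061), and Loxl2 without the libraries with few genes detected (0.17). At day 56 against day 14 Loxl4 was 0.057 with edgeR, 0.027 with DESeq2, 0.024 with a sex term and 0.10 without the libraries with few genes detected. In fits without 1 library, ranges that crossed 0 were, between the gels, -0.39 to 0.020 for Lox, -0.067 to 0.014 for Loxl3 and -0.055 to 0.037 for Plod2. At day 56 against sham they were -0.24 to 0.068 for Loxl2, -0.15 to 0.061 for P4ha2 and -0.20 to 0.28 for Plod2, and at day 56 against day 14 -0.19 to 0.22 for Loxl4.

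ATAC regions at the 10 genes within 10 kb of a start numbered 17 on soft gels, 21 on stiff gels, 1 between the gels, 10 at day 14, 1 at day 56 against sham and 7 at day 56 against day 14. At an FDR of at most 0.001, 0 remained between the gels. Counting regions inside a member's gene body, an alternative added after the data were seen, gave 9 at day 56 against day 14, against 14.

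Replicate numbers pair no libraries: correlations of same-numbered libraries were -0.16 to 0.12 in C57BL/6, 1 of 12 above 0.1, and -0.16 to 0.07 in CD1, 0 of 9. With the replicate block the counts of the 10 genes called were 10 and 9 on soft and stiff gels, 0 between them, 7 at day 14, 0 at day 56 against sham, 7 at day 56 against day 14 and 6 in the difference between culture and injury.

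Over all genes, counts of calls that moved by over 1.5 times were, at day 14, 5583 without the libraries with few genes detected and 2232 without day 14 replicate 2 (3363 with all), and for day 56 against day 14 4919 without those libraries, 1924 with a sex term and 1857 without day 14 replicate 2 (2997 with all). Between the gels 0 became 43 with DESeq2 and 848 without stiff replicate 3, and at day 56 against sham 1 became 79 with DESeq2, 14 without the libraries with few genes detected and 4 with values as deposited.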
